A study of Mus musculus with 16 samples.

Results

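The 10 genes described here encode 53BP1 and the proteins that act with it at DNA breaks: Trp53bp1 itself, Rif1, the shieldin genes Mad2l2, Shld1, Shld2 and Shld3, the effectors Paxip1 and Dclre1c, and the regulators Nudt16l1 and Rnf168. They were taken by gene symbol from 18635 genes listed in the deposited count tables, and all 10 passed the filter on low counts in every comparison. The study knocked out Trp53bp1 in the mouse lines ID8, derived from ovarian surface epithelium, and KPC, a pancreatic cancer line, and sequenced RNA of samples labelled as tumours grown from the implanted lines in syngeneic mice. The extraction protocol, however, speaks of RNA taken from cells, so the samples are called samples here. The groups were ID8 wild type and ID8 Trp53bp1 KO with 3 samples each, and KPC wild type and KPC Trp53bp1 KO with 5 samples each. Wild type here means the tumour line without the knockout, and no other treatment was given to any group. Each genotype is described as a single cell line, so an effect of the knockout and a difference that arose between the lines otherwise cannot be told apart. Strain, age and sex of the hosts, the part of the gene that was targeted and whether the knockout lines were single clones are not stated in the sources at hand, and the hosts are not described as lacking Trp53bp1.

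53BP1 binds chromatin at double-strand breaks through methylated histone H4 and through histone H2A ubiquitinated by RNF168. ATM phosphorylates its N-terminal part, which then recruits RIF1 and PTIP. RIF1 brings in shieldin, the complex of REV7 (from Mad2l2), SHLD1, SHLD2 and SHLD3, which limits resection of the broken ends and recruits the CST complex and polymerase alpha to fill them in. In BRCA1-deficient cells, loss of 53BP1 or shieldin restores homologous recombination and with it resistance to PARP inhibitors.

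Promoter windows of Trp53bp1, Shld1, Shld2 and Dclre1c are shown first, since these were the members of largest change in the ID8 knockout. Of the 10 members, 9 had an entry in the RefSeq promoter table (build GRCm38.p6, while the counts were made on GRCm39), and Rif1 did not. The windows are the 250 bases before the annotated start, read 5′ to 3′ on the gene's strand. Trp53bp1 lay at chr2:121271408-121271657 on the minus strand, the first of the 3 listed starts of Shld1 at chr2:132686681-132686930 on the plus strand, Shld2 at chr14:34310518-34310767 on the minus strand and Dclre1c at chr2:3423881-3424130 on the plus strand. Capitals mark matches on either strand to the motifs given after the sequences.
Trp53bp1: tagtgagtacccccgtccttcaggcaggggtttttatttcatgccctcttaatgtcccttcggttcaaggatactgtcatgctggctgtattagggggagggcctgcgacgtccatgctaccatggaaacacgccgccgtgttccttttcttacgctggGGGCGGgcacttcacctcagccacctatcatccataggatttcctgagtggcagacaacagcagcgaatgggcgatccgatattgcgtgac
Shld1: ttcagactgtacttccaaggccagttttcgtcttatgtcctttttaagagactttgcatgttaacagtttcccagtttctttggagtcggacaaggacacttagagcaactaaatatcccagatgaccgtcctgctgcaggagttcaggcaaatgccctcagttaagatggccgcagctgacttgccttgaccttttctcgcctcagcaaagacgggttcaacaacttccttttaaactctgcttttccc
Shld2: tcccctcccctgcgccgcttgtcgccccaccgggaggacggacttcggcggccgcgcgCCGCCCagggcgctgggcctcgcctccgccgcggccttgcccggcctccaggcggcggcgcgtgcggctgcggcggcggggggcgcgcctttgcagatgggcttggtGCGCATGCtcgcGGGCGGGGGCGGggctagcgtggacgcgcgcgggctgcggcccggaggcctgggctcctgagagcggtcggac
Dclre1c: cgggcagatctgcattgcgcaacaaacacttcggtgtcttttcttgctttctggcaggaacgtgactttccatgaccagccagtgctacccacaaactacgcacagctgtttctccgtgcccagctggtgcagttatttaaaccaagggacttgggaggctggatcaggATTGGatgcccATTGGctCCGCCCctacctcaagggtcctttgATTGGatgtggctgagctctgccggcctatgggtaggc

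The motifs searched on both strands were the CCAAT box (CCAAT), the GC box (GGGCGG), the cyclic AMP response element (TGACGTCA), the E-box (CACGTG), an E2F site (TTTCCCGC), a part of the NRF1 palindrome (GCATGCGC) and the interferon-stimulated response element by its consensus. For members with several listed starts, the first was used, while the 32851 windows set beside them hold every distinct listed start of every gene. The second listed start of Mad2l2 held a CCAAT box, which the counts below leave out. The GC box was in the window of 7 of 9 members, against 32.7% of 32851 promoter windows of this length. The NRF1 letters were in 3 of 9 (Nudt16l1, Paxip1 and Shld2) against 2.26%, and its matches in Paxip1 overlap on opposite strands. CCAAT was in 2 of 9 (Dclre1c, with 3 matches, and Nudt16l1) against 33.8%. The E-box was in 1 of 9 (Nudt16l1) against 6.02%. The response elements for cyclic AMP and interferon and the E2F site were in 0 of 9, against 1.55%, 2.98% and 0.895% of windows. The window of Trp53bp1 held 1 GC box and a GC content of 54.4%. That of Shld2 held 3 GC boxes, the last 2 of them adjoining, at a GC content of 81.2%, and that of Shld1 held no match, at 46% GC. For Shld2 and Shld3, the bases after the listed start were not found in a GENCODE transcript of that gene, so those starts are less certain. A match describes these letters and is not a measured binding site.

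Library totals were 17902867 to 19727536 expected counts. Levels are given as CPM, counts scaled to 1 common library size, with TMM factors over all 16 libraries. Genes varied between libraries of 1 group with a biological coefficient of variation of 5.08% for ID8 but 25.1% for KPC. As a check of the tissue labels, 14 of 20 leukocyte markers, among them Ptprc (CD45), were at 0 in all wild-type ID8 libraries and 14 of 20 in all ID8 knockout libraries, so most defining leukocyte markers were absent from the ID8 samples labelled as tumours. Of 12 endothelial markers, Cdh5, Kdr and Cldn5 were at 0 in both ID8 groups, while Esam was at 127 to 166 CPM, above its 38.7 to 57.2 CPM in KPC, and Robo4 at 8.38 to 14.2 CPM. The endothelial sums were 148 to 180 CPM in ID8 and 471 to 756 CPM in KPC. Whether the ID8 RNA came from tumours with few host cells or from cells in culture cannot be told apart. In KPC the summed leukocyte markers were 1600 to 3825 CPM in the wild-type libraries and 2936 to 4888 CPM in the knockout libraries, with 0 of 20 at 0 in either group and 3 of 19 tested markers higher in knockout. Skeletal muscle markers summed to between 721 and 37541.5 CPM over wild-type and between 36.3 and 7741 CPM over knockout KPC libraries, and Acta1, the muscle actin, exceeded 1000 CPM in wild-type replicates 2 and 4 and knockout replicates 2 and 5. Of the pancreatic ductal markers, Pdx1 was at 0 in ID8 and at 20.03 to 32.1 CPM in KPC, Tff1 and Tff2 were at or near 0 in both lines, and others were high in ID8 too, such as Krt19 (1244 to 1636 CPM) and Gata6 (212 to 242 CPM, above KPC at 22.2 to 68.8 CPM). In bulk RNA, fewer cells of a type and less RNA per cell cannot be told apart. The labels call the samples biological replicates and the series text calls them different tumours, but does not say whether each came from its own mouse.

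Trp53bp1 RNA fell in the knockouts of both lines and remained measurable in each. In ID8 wild type, Trp53bp1 was at 46.2, 50.6 and 45.5 CPM, and in ID8 knockout at 18.3, 19.0 and 19.3 CPM. All 3 knockout libraries lay below all 3 wild-type libraries, at means of 47.4 ± 2.78 and 18.9 ± 0.501 CPM (SD, n = 3 each), so knockout samples held 39.8% of the wild-type level. The log2 fold change was -1.33 (SE 0.0667, 95% interval -1.47 to -1.18, adjusted p = 1.15e-10 by edgeR's quasi-likelihood test with Benjamini-Hochberg adjustment, as for every adjusted p here). By exact permutation, two-sided, p was 0.1, the lowest value possible with 3 libraries per group. Of the 11933 genes tested in ID8, 318 had a more negative change.

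In KPC wild type, Trp53bp1 was at 49.4, 48.4, 52.3, 47.0 and 54.1 CPM. The KPC knockout libraries had 28.02, 36.5, 37.6, 34.6 and 32.3 CPM. These groups did not overlap either, with the highest knockout library (replicate 3) below the lowest wild-type library (replicate 4). The means were 50.2 ± 2.92 and 33.8 ± 3.79 CPM (SD, n = 5 each), or 67.2% of wild type, with a log2 fold change of -0.59 (SE 0.0898, 95% interval -0.79 to -0.40, adjusted p = 0.004). The exact two-sided permutation p was 0.00794, the lowest possible with 5 libraries per group, and 1043 of 14283 tested genes had a more negative change. Tested directly, the change in KPC was 0.76 smaller in size on the log2 scale than that in ID8 (interaction estimate 0.76, SE 0.121, 95% interval 0.50 to 1.02, adjusted p = 0.000525). The summed leukocyte markers, at 3.88 to 12.9 CPM over all ID8 libraries and 1600 to 4888 CPM over all KPC libraries, differed between the lines in the same libraries, and their part in the difference was not tested. Counts per gene do not measure protein, and as the targeted part of the gene is not given, the remaining RNA is no check of whether functional 53BP1 was made.

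**Figure D1:**
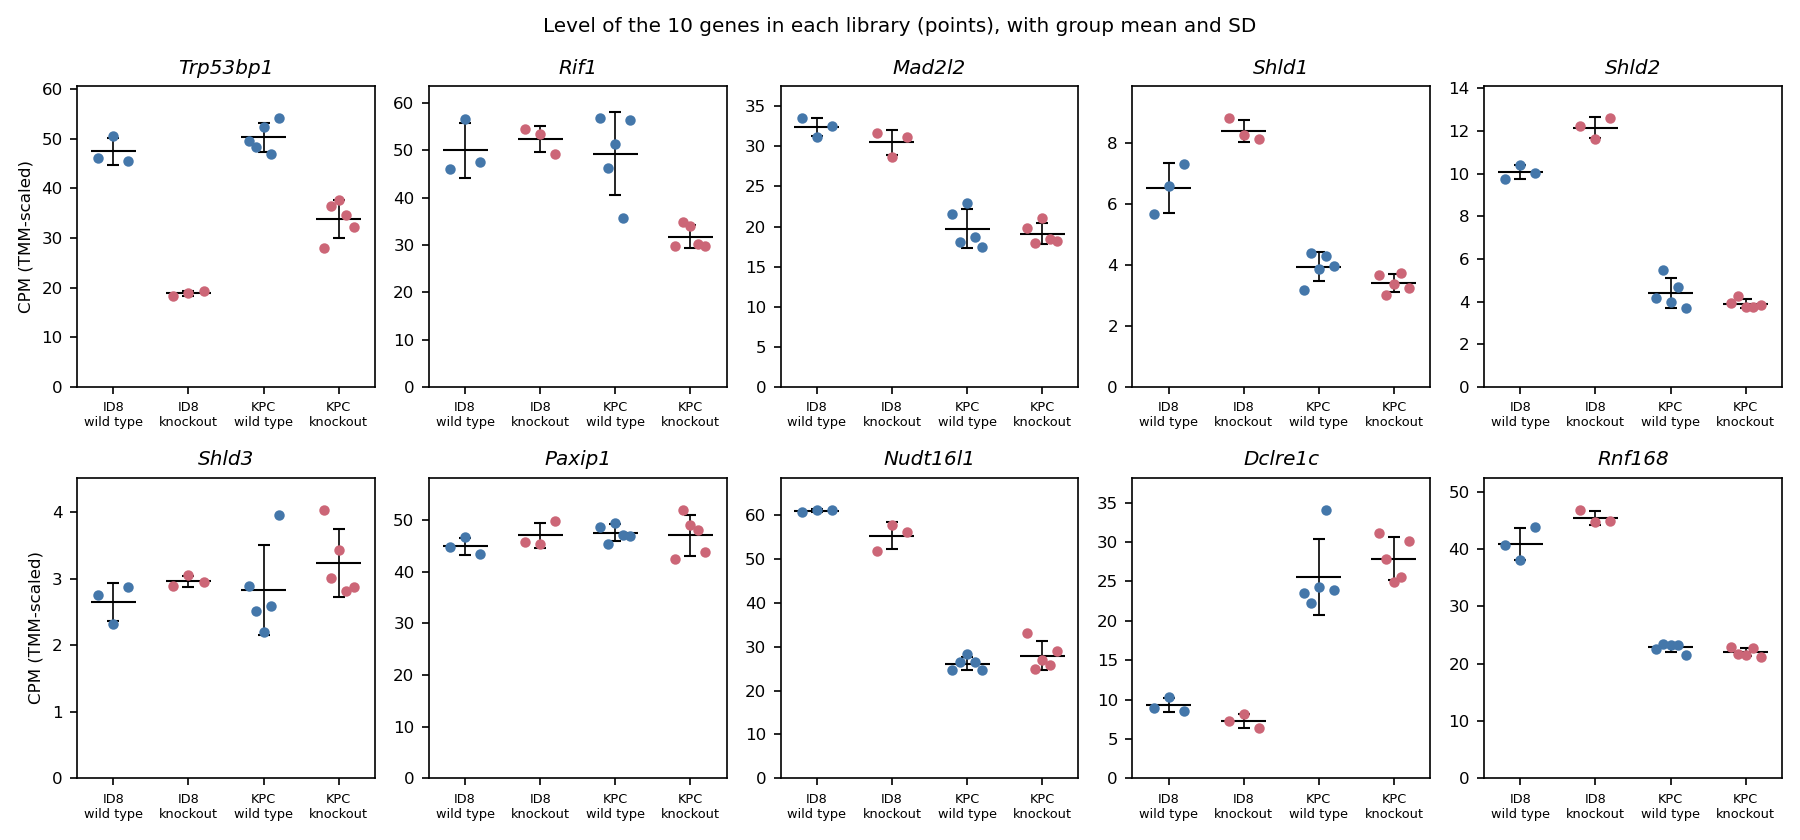
Level of each of the 10 genes in CPM (vertical axes, each from 0) in every library (points), by line and genotype, with the group mean (long bar) and SD (error bar). Trp53bp1 separates by genotype in both lines, from 18.3 to 19.3 CPM in ID8 knockout and from 28.02 to 37.6 CPM in KPC knockout, while Rif1 separates by genotype in KPC alone, where knockout libraries sit at 29.8 to 34.8 CPM.

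Most genes beside Trp53bp1 on chromosome 2 did not pass the test or rose. Over the 5 tested genes on each side (neighbours by the RefSeq annotation of GRCm38.p6), the median log2 fold change was 0.05 in ID8 (range -1.12 to 0.34), with 3 higher and 1 lower by the test. In KPC the median was also 0.05 (range -0.13 to 1.79), with 1 higher and 0 lower. For all tested genes of chromosome 2 the median was 0.03 in ID8 (932 genes) and -0.05 in KPC (1100 genes). Tubgcp4, a gamma-tubulin complex gene that overlaps Trp53bp1 in that annotation, had log2 fold changes of -0.12 in ID8 (adjusted p = 0.0619) and 0.0015 in KPC (adjusted p = 0.99). Map1a, a microtubule-associated protein gene that also overlaps it, had -0.12 and -0.06. Ckmt1, a mitochondrial creatine kinase gene, was the neighbour with the widest change, at -1.12 in ID8 and 1.79 in KPC, and was named after its values were seen. The sources used here do not say whether the counting used strand, so reads of overlapping genes on opposite strands could be mixed.

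**Figure D2:**
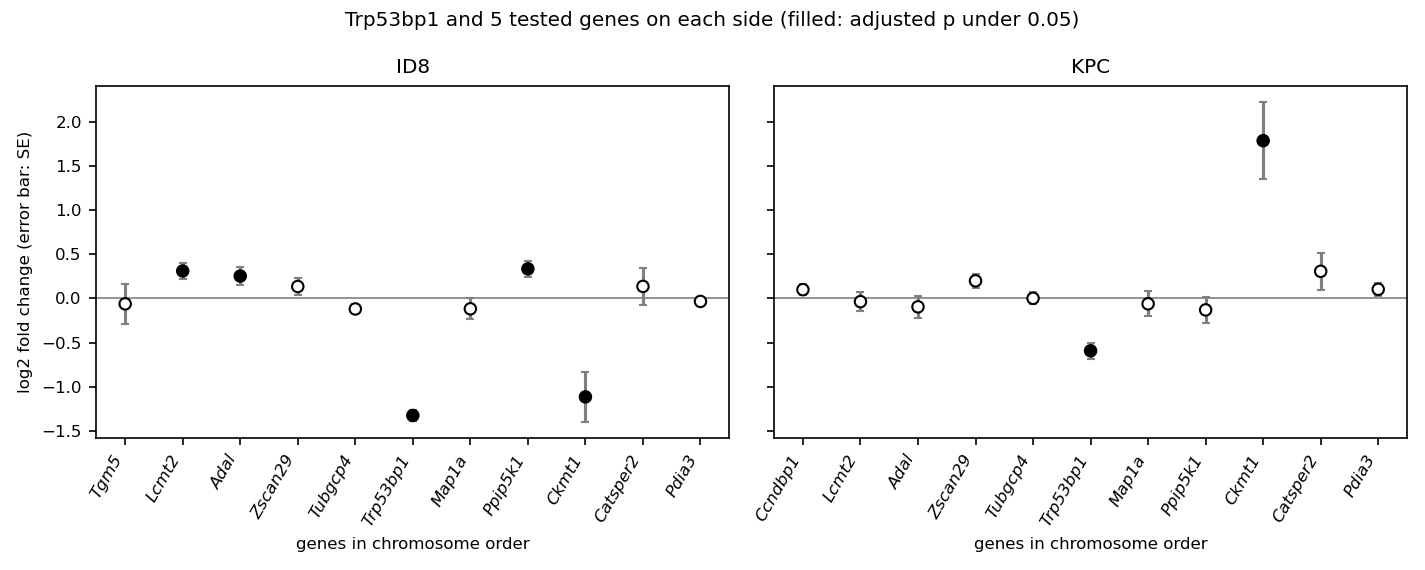
Log2 fold change of knockout against wild type (vertical axis, error bars SE) for Trp53bp1 and the 5 tested genes on either side in chromosome order (horizontal axis), in ID8 (left) and KPC (right), filled where adjusted p was under 0.05. Trp53bp1 stands at -1.33 and -0.59 between overlapping genes, Tubgcp4 and Map1a, that lie at -0.12 and -0.12 in ID8 and at 0.0015 and -0.06 in KPC.

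Rif1, whose product binds phosphorylated 53BP1 and is the platform for shieldin, fell in the KPC knockout and did not pass the test in ID8. The ID8 wild-type libraries had 46.0, 56.7 and 47.4 CPM and the ID8 knockout libraries 54.5, 53.3 and 49.2 CPM, with overlap of the groups. The change there was 0.07 (95% interval -0.09 to 0.23, adjusted p = 0.47), an interval that leaves out a fall of the size seen in KPC. Rif1 passed in ID8 in 1 of 14 alternatives, as a rise of 0.165 without wild-type replicate 2 (adjusted p = 0.0475). Over the alternatives its ID8 estimate ran from 0.0078 to 0.165. KPC wild-type libraries had 56.8, 46.2, 51.2, 35.7 and 56.5 CPM, of which replicate 4 was the lowest. KPC knockout libraries had 29.8, 34.8, 34.1, 30.2 and 29.8 CPM, all below that lowest wild-type library.

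The KPC means of Rif1 were 49.3 ± 8.74 and 31.7 ± 2.50 CPM (SD, n = 5 each), or 64.4% of wild type. The log2 fold change of -0.66 (SE 0.128, 95% interval -0.94 to -0.37, adjusted p = 0.0117) stood beside -0.59 for Trp53bp1 in that line, and 931 tested genes had a more negative one. The exact two-sided permutation p was 0.00794, again the lowest possible. The difference between the lines passed its own test (interaction -0.70, SE 0.179, 95% interval -1.08 to -0.32, adjusted p = 0.0117). The 10 neighbours of Rif1 had a median of -0.07 in KPC, with 1 higher and 0 lower.

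Marker lists in the same KPC libraries were compared by genotype, not with Rif1 library by library. Of all tested genes, 6.67% were higher and 7.01% lower in the KPC knockout by edgeR's test. The share of all genes at an unadjusted p under 0.05 was not computed. Of 20 proliferation markers, 3 were lower and 0 higher in the KPC knockout by edgeR's test (6 and 0 at an unadjusted p under 0.05), with a list median of -0.119 and sums of 1380 to 1873 CPM in wild type and 1397 to 1562 CPM in knockout. Of 19 tested leukocyte markers, 3 were higher by that test, 14 at an unadjusted p under 0.05, and 19 had a positive estimate (list median 0.82). Of 12 pancreatic ductal markers 5 were higher and 2 lower, and of 9 ovarian surface epithelial markers, a list that shares keratins with it, 5 were higher and 2 lower. All 14 skeletal muscle markers had a negative estimate (list median -2.05), with 0 called by edgeR and 2 at an unadjusted p under 0.05. The part of these lists in the change of Rif1 was not tested. Without the 4 libraries of high Acta1, an alternative chosen after seeing the data, the change of Rif1 was -0.81 and that of Trp53bp1 -0.64, and both passed the test.

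Among the shieldin genes, Shld1 and Shld2 rose in the ID8 knockout, Mad2l2 and Shld3 did not pass the test there, and none of the 4 passed it in KPC. Mad2l2 encodes REV7, a HORMA-domain protein that also serves polymerase zeta and the spindle checkpoint. Its ID8 libraries had 33.5, 31.2 and 32.5 CPM in wild type and 31.6, 28.7 and 31.2 CPM in knockout. Its KPC libraries had 21.6, 18.1, 22.9, 18.6 and 17.4 CPM in wild type and 19.8, 17.9, 21.0, 18.5 and 18.2 CPM in knockout. The groups overlapped in both lines, with changes of -0.08 in ID8 (95% interval -0.22 to 0.05, adjusted p = 0.291) and -0.07 in KPC (95% interval -0.28 to 0.14, adjusted p = 0.634).

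SHLD1 is held in the complex by SHLD2. Shld1 was at 5.66, 6.59 and 7.31 CPM in ID8 wild type and at 8.81, 8.25 and 8.12 CPM in ID8 knockout. Every knockout library lay above every wild-type library, and the log2 fold change was 0.37 (SE 0.113, 95% interval 0.13 to 0.61, adjusted p = 0.0119), or 129% of wild type. In KPC, Shld1 was at 3.19, 4.40, 3.85, 4.31 and 3.96 CPM in wild type and at 3.65, 3.01, 3.38, 3.75 and 3.24 CPM in knockout. Those groups overlapped, and the change of -0.23 (95% interval -0.55 to 0.08, adjusted p = 0.276) did not pass. The difference between lines was -0.58 (SE 0.198, 95% interval -0.997 to -0.15, adjusted p = 0.0491), close to the threshold. That call was kept in 9 of 24 alternatives, and the ID8 call in 12 of 14.

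SHLD2 carries the domains that bind single-stranded DNA. Shld2 was at 9.75, 10.4 and 10.01 CPM in ID8 wild type and at 12.2, 11.6 and 12.6 CPM in knockout, again without overlap. It rose by 0.28 on the log2 scale (SE 0.0874, 95% interval 0.09 to 0.46, adjusted p = 0.0149), to 121% of wild type, and 10 of 14 alternatives kept the call. In KPC, Shld2 was at 4.15, 5.50, 3.95, 4.67 and 3.70 CPM in wild type and at 3.93, 4.25, 3.74, 3.75 and 3.85 CPM in knockout. The KPC groups overlapped (-0.19, 95% interval -0.51 to 0.13, adjusted p = 0.378). The difference between lines was -0.44 (adjusted p = 0.0911) and did not pass.

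SHLD3 links RIF1-bound chromatin to REV7. Shld3 was the member with the fewest counts, 896 over the 16 libraries, and its counts were fractional in every library while it overlaps Trappc13 in the annotation, so its values are uncertain. In ID8 it was at 2.75, 2.32 and 2.87 CPM in wild type and at 2.89, 3.05 and 2.95 CPM in knockout, groups that did not overlap by a narrow margin. The change of 0.17 (95% interval -0.17 to 0.51, adjusted p = 0.41) did not pass. In KPC it was at 2.88, 2.51, 2.20, 2.59 and 3.96 CPM in wild type and at 4.03, 3.01, 3.43, 2.81 and 2.88 CPM in knockout. These overlapped, with wild-type replicate 5 among the highest, and the change was 0.17 (95% interval -0.26 to 0.60, adjusted p = 0.574). At this depth neither a rise nor a fall within those intervals was detectable.

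The effectors that act beside RIF1 and shieldin are PTIP and Artemis. Paxip1 encodes PTIP, a BRCT protein that binds phosphorylated 53BP1 separately from RIF1 and also belongs to a histone H3 methyltransferase complex. Its ID8 libraries had 44.8, 46.7 and 43.4 CPM in wild type and 45.8, 45.5 and 49.9 CPM in knockout. Its KPC libraries had 48.7, 45.4, 49.5, 47.1 and 47.0 CPM in wild type and 42.4, 52.0, 49.0, 48.1 and 43.7 CPM in knockout. The groups overlapped in both lines, with changes of 0.07 (95% interval -0.06 to 0.20, adjusted p = 0.35) and -0.04 (95% interval -0.19 to 0.12, adjusted p = 0.752), and all 4 group means lay between 44.9 and 47.6 CPM.

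Dclre1c encodes Artemis, a nuclease that trims DNA ends and acts downstream of PTIP. Dclre1c was at 8.94, 10.3 and 8.55 CPM in ID8 wild type and at 7.29, 8.20 and 6.38 CPM in knockout. The groups did not overlap, and the gene fell to 78.8% of wild type (log2 fold change -0.34, SE 0.115, 95% interval -0.58 to -0.10, adjusted p = 0.0213), a call kept in 8 of 14 alternatives. In KPC it was at 23.5, 22.2, 24.3, 34.1 and 23.9 CPM in wild type and at 31.1, 27.8, 24.9, 25.5 and 30.1 CPM in knockout. Wild-type replicate 4, one of the libraries of high Acta1, stood above all others, and the change of 0.11 (95% interval -0.15 to 0.36, adjusted p = 0.543) did not pass. Without that library the change was 0.22 (adjusted p = 0.092). Over all 19 alternatives the adjusted p of Dclre1c in KPC ran from 0.092 to 0.724. Dclre1c overlaps Suv39h2 in the annotation and had fractional counts in every library, so its split of reads is uncertain.

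The regulators act on the binding of 53BP1 to chromatin. Nudt16l1 encodes TIRR, which covers the histone-binding surface of 53BP1 until damage occurs. Nudt16l1 was at 60.8, 61.2 and 61.3 CPM in ID8 wild type and at 51.9, 57.9 and 56.2 CPM in knockout, all below. It fell by 0.14 on the log2 scale (SE 0.0559, 95% interval -0.26 to -0.02, adjusted p = 0.0483), to 90.6% of wild type. The ID8 wild-type libraries of Nudt16l1 varied by 0.395%, below the 2.97% of counting error alone. In KPC it was at 24.8, 26.4, 28.3, 26.6 and 24.7 CPM in wild type and at 33.1, 24.8, 27.0, 25.9 and 29.0 CPM in knockout. Those groups overlapped, with knockout replicate 1 the highest (change 0.07, 95% interval -0.11 to 0.26, adjusted p = 0.566).

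Rnf168 encodes the ubiquitin ligase that writes the H2A mark read by 53BP1. It was at 40.7, 38.2 and 43.8 CPM in ID8 wild type and at 46.9, 44.8 and 44.8 CPM in knockout. The groups did not overlap, and Rnf168 rose by 0.16 on the log2 scale (SE 0.0611, 95% interval 0.03 to 0.29, adjusted p = 0.0401), to 111% of wild type. In KPC it was at 22.6, 23.5, 23.3, 23.4 and 21.6 CPM in wild type and at 22.8, 21.7, 21.5, 22.7 and 21.2 CPM in knockout, with overlap (change -0.08, 95% interval -0.21 to 0.05, adjusted p = 0.381). The ID8 calls of Nudt16l1 and Rnf168 were kept in 3 and 4 of 14 alternatives.

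In all, 6 of 10 members passed the test in ID8, 3 higher (Shld1, Shld2, Rnf168) and 3 lower (Trp53bp1, Nudt16l1, Dclre1c). Of all tested genes 50.8% passed, 25.4% higher and 25.5% lower, so the members' share was near the background. Groups did not overlap for 7 of 10 members, against 57.9% of genes (28.7% higher and 29.3% lower). The members' median log2 fold change was 0.07, beside 0.0062 for all genes. Scaled by library totals, 4 members passed, 3 higher and 1 lower, without Nudt16l1 and Dclre1c. That scaling called 6542 of 11933 genes and gave a median over all genes of 0.0809. The ID8 count of members fell to 2 without wild-type replicate 1, to 3 without knockout replicate 1 and to 2 without knockout replicate 3. Those fits called 5355 of 12033, 5536 of 12038 and 5478 of 12043 genes. Trp53bp1 was called in each of the 14 alternatives.

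In KPC 2 of 10 members passed, Trp53bp1 and Rif1, both lower, against 13.7% of all genes (6.67% higher and 7.01% lower). At an unadjusted p under 0.05 the count of members was also 2, with 0 higher, and the share of all genes at that threshold was not computed. The same 2 were the members whose groups did not overlap, against 11.8% of genes (5.76% higher and 6.04% lower). The members' median was -0.07, beside -0.0124 for all genes. Between the lines, 3 of 10 members differed in their change, Trp53bp1 with a higher estimate and Rif1 and Shld1 with a lower one in KPC than in ID8, against 21.8% of genes (11.6% higher and 10.3% lower). The other 7 did not pass, with estimates of 0.47 for Dclre1c (adjusted p = 0.103), -0.21 for Rnf168 (adjusted p = 0.0819) and 0.24 for Nudt16l1 (adjusted p = 0.167) among them. Without KPC wild-type replicate 4 the Dclre1c estimate was 0.59 and passed. Over all 24 alternatives its adjusted p ran from 0.00964 to 0.243, and 3 of them passed.

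**Figure D3:**
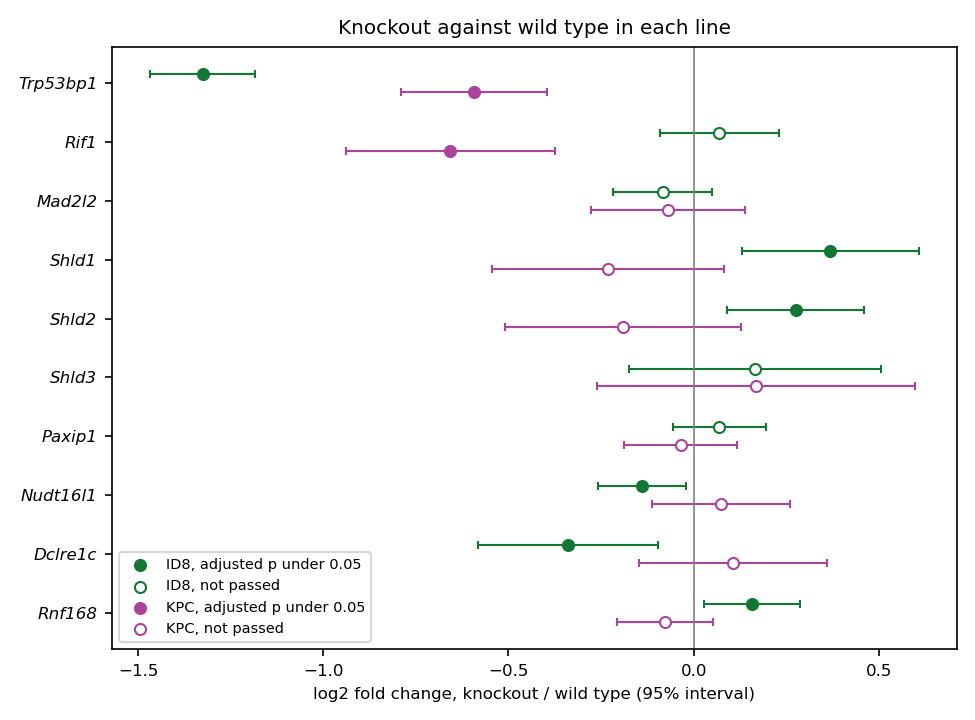
Log2 fold change of knockout against wild type (horizontal axis) with its 95% interval for each of the 10 genes (vertical axis), in ID8 (green) and KPC (purple), filled where adjusted p was under 0.05. Trp53bp1 is left of 0 in both lines at -1.33 and -0.59, Rif1 is left of 0 in KPC at -0.66, and the other intervals that leave out 0 are those of Shld1, Shld2, Nudt16l1, Dclre1c and Rnf168 in ID8.

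Before any knockout, the lines differed in 6 members, a share below that of all genes, and not detectably in Trp53bp1. Of the 10 members, 6 passed the test between wild-type KPC and wild-type ID8, 1 higher and 5 lower in KPC, against 79.8% of all genes (46.5% higher and 33.4% lower). Dclre1c was 2.77-fold higher in KPC (log2 difference 1.47, SE 0.144, adjusted p = 1.57e-07), at 25.6 ± 4.82 CPM (SD, n = 5) against 9.25 ± 0.894 CPM (SD, n = 3). Nudt16l1 was lower in KPC, at 26.2 ± 1.505 against 61.1 ± 0.242 CPM (log2 difference -1.22, adjusted p = 1.7e-09). The remaining lower members were Shld2 at -1.19, Rnf168 at -0.84, Shld1 at -0.72 and Mad2l2 at -0.71, with adjusted p from 2.52e-09 to 0.000179.

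Trp53bp1 (0.08, adjusted p = 0.368), Rif1 (-0.02, adjusted p = 0.879), Shld3 (0.10, adjusted p = 0.664) and Paxip1 (0.08, adjusted p = 0.275) did not pass between the wild-type lines. Groups did not overlap for the same 6 members, against 77.3% of genes (44.7% higher and 32.7% lower), each with an exact permutation p of 0.0179, the lowest possible. The median of all genes was 0.183 in this comparison and 0.303 when scaled by library totals alone, and the members' median was -0.37. All 20 leukocyte markers were higher and all 20 proliferation markers lower in wild-type KPC than in ID8, so line and tumour makeup cannot be told apart here.

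Levels of different genes were compared per kilobase of exon (lengths from GENCODE vM21, in which Shld3 has no length). In ID8 wild type the order was Nudt16l1 (35.8 CPM per kilobase), Mad2l2 (18.4), Rnf168 (9.17), Paxip1 (7.68), Rif1 (5.88), Trp53bp1 (4.93), Shld1 (4.28), Shld2 (2.03) and Dclre1c (1.16). Neighbours in that order did not overlap over the 3 libraries except Trp53bp1 and Shld1. In ID8 knockout Trp53bp1, at 1.96, stood below Shld1 (5.51) and Shld2 (2.45). Its libraries there lay below those of Shld2, which they exceeded in wild type, and below those of Shld1, with which they overlapped in wild type.

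In KPC wild type Nudt16l1 (15.3 CPM per kilobase), Mad2l2 (11.2) and Paxip1 (8.13) led, each clear of the next. Rif1 (5.79), Trp53bp1 (5.22) and Rnf168 (5.13) overlapped one another, Dclre1c (3.21) overlapped both Rif1 and Shld1 (2.59), and Shld2 (0.885) was lowest. In KPC knockout Rnf168 (4.93) stood above Rif1 (3.73), Trp53bp1 (3.51) and Dclre1c (3.50), and those last 3 overlapped. Shld1 (2.24) and Shld2 (0.786) closed the order.

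**Figure D4:**
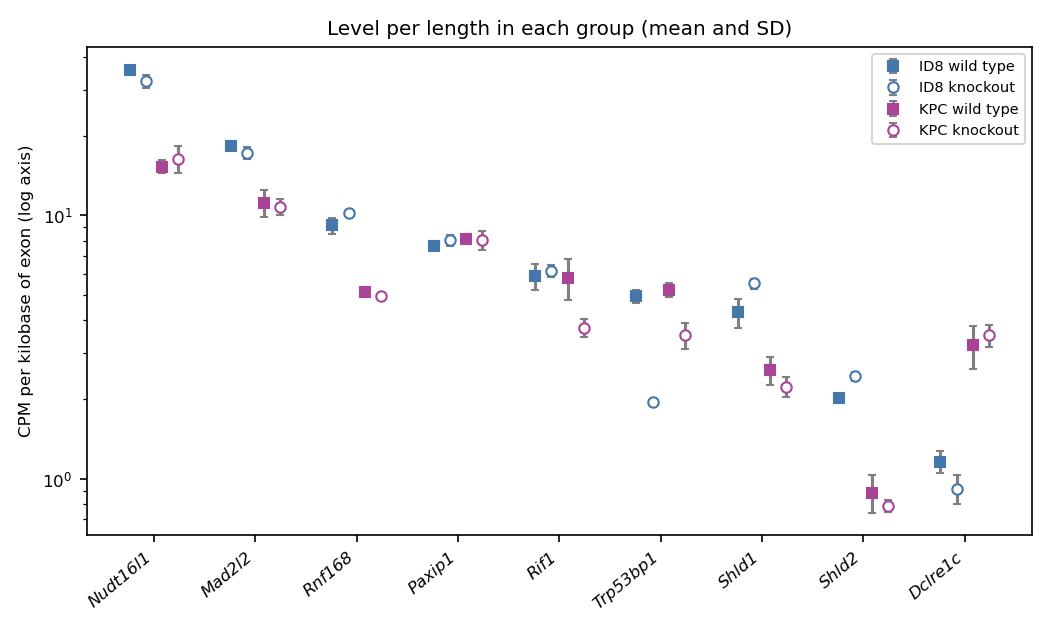
Level per length (CPM per kilobase of exon, log axis) for 9 of the 10 genes, as group mean and SD for ID8 (blue) and KPC (purple), wild type (squares) and knockout (circles). Nudt16l1 and Mad2l2 are highest in every group, and Trp53bp1 moves from 4.93 to 1.96 in ID8 and from 5.22 to 3.51 in KPC.

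Upstream of 53BP1, chromatin signalling genes moved in both directions in ID8. Of 17 tested, 5 were higher and 3 lower there (list median 0.05), and 0 were higher and 2 lower in KPC (median -0.11). Atm, the kinase that starts the cascade, rose from 17.0 ± 2.00 to 29.3 ± 1.95 CPM in ID8 (SD, n = 3 each, log2 fold change 0.79, adjusted p = 9.81e-07). Its KPC change was -0.30 and did not pass (adjusted p = 0.145), and the difference between lines passed at -1.06 (adjusted p = 0.0011). Rnf169, a reader of the same ubiquitin mark that competes with 53BP1, rose by 0.47 in ID8, and the acetyltransferase Kat5 (TIP60) rose by 0.24. Usp3, a deubiquitinase of H2A, fell by 0.48 in ID8. In KPC the histone H4 lysine methyltransferase Kmt5a fell by 0.29 (adjusted p = 0.0164).

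The fill-in machinery of CST and polymerase alpha-primase had 8 tested genes. In ID8, 2 were higher and 1 lower (median 0.06): Pola1, the catalytic subunit, fell by 0.40 (adjusted p = 1.65e-05), Pola2 rose by 0.17 and Stn1 of CST rose by 0.18, calls kept in 10 and 6 of 14 alternatives. In KPC 0 of 8 passed edgeR's test (median -0.07), with 2 at an unadjusted p under 0.05, 2 by DESeq2 and 1 by limma-voom. Of all 14283 genes tested in KPC, DESeq2 called 3162 and limma-voom 3174, against 1953 by edgeR. Scaled by library totals, the ID8 split was 4 higher and 1 lower, where the median of all ID8 genes was 0.0809.

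Among 15 genes of BRCA1, its complexes and resection, 4 were higher and 3 lower in ID8 (median 0.03), and 1 was higher and 3 lower in KPC (median -0.08). Bard1, the partner of BRCA1, rose from 9.47 ± 1.31 to 12.9 ± 0.749 CPM in ID8 (adjusted p = 0.00168) and fell from 14.97 ± 1.24 to 11.5 ± 1.19 CPM in KPC (adjusted p = 0.0301). The KPC call was kept in 9 of 19 alternatives, and the difference between lines was -0.82 (adjusted p = 0.00193). Rpa1, of the single-strand binding complex, rose by 0.23 in ID8, where the helicase Wrn fell by 0.40. Brca2, a mediator of homologous recombination, fell by 0.53 in KPC (adjusted p = 0.0155), Abraxas1 of the BRCA1-A complex fell by 0.42 (adjusted p = 0.0372, kept in 8 of 19 alternatives), and Uimc1 (RAP80) of the same complex rose by 0.34 (adjusted p = 0.0207). Scaled by library totals, the ID8 split was 6 higher and 2 lower, where the median of all ID8 genes was 0.0809.

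Of 24 genes from other complexes of the members, 5 were higher and 5 lower in ID8 (median 0.06), and 0 were higher and 4 lower in KPC (median -0.07). Usp28, a deubiquitinase that binds 53BP1 in its p53 function, fell from 26.6 ± 1.55 to 17.5 ± 0.555 CPM in ID8 (log2 fold change -0.60, adjusted p = 3.43e-06) and from 28.3 ± 1.96 to 22.4 ± 2.79 CPM in KPC (-0.36, adjusted p = 0.0389). The KPC call was kept in 11 of 19 alternatives. The p53 targets Cdkn1a (p21) and Mdm2 rose by 0.41 and 0.31 in ID8, where the phosphatase subunit Ppp1cc fell by 0.28. In KPC, Rev3l, the catalytic subunit of the polymerase that uses REV7, fell by 0.43 (adjusted p = 0.0421, kept in 8 of 19 alternatives), and its partner Rev1 fell by 0.38 (adjusted p = 0.014). Rev1 differed between the lines by -0.71 (adjusted p = 0.000408), and the phosphatase subunit Ppp1cb fell by 0.27 in KPC (adjusted p = 0.039, kept in 7 of 19 alternatives).

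The direction of these lists depends on scaling in ID8: by library totals the upstream list had 7 higher and 3 lower and the other complexes 9 higher and 4 lower. All genes moved the same way, with a median of 0.0809 by library totals in place of 0.0062. The number of genes called was then 6542 of 11933 in place of 6067, and its split by direction was not computed. With the main scaling, the background of all 4 lists was that given for the members. In ID8 the shares called, 8 of 17, 3 of 8, 7 of 15 and 10 of 24, lie near 50.8%. In KPC they were 2 of 17, 0 of 8, 4 of 15 and 4 of 24, beside 13.7%. For the difference between lines they were 4, 0, 5 and 4, beside 21.8%, and library totals gave the fill-in list 0 higher and 3 lower. Over all genes, library totals gave a median difference of -0.0949 in place of 0.0106, with 3649 of 14921 called. The 0 fill-in genes called by edgeR for that difference compare with 4 at an unadjusted p under 0.05, 2 by DESeq2 and 3 by limma-voom. Of all 14921 genes, DESeq2 called 3800 and limma-voom 4972, against 3259 by edgeR. The share of all genes at the unadjusted threshold was not computed.

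Other listed genes also differed in their change between the lines, given as KPC minus ID8. In the upstream list these were Kmt5c, another H4 methyltransferase gene (0.55), Usp3 (0.40) and Kmt5a (-0.41). In the list of BRCA1 and resection they were Uimc1 (0.54), Rpa3 (0.49) and Abraxas1 (-0.53), and among the other complexes Nudt16 (0.78), Mad2l1bp, which binds HORMA proteins (0.33), and Ppp1cb (-0.32). The calls of Rpa3, Abraxas1 and Ppp1cb were kept in 11, 10 and 15 of 24 alternatives. Between the wild-type lines, 12 of 17 upstream, 7 of 8 fill-in, 11 of 15 resection and 13 of 24 other genes were lower in KPC, beside 33.4% of all genes, and 4, 1, 2 and 7 were higher, beside 46.5%. By library totals 9 upstream, 7 fill-in, 10 resection and 10 other genes were lower, where the median of all genes was 0.303 in place of 0.183. All 20 proliferation markers were lower in the same libraries (list median -1.21), and their part was not tested.

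Genes whose levels followed Trp53bp1 most closely were ranked by Pearson's r of log2(CPM + 0.5) over the 16 libraries, among 10208 genes of mean log2 CPM of at least 3, as a description of libraries that share lines and genotypes. They were the histone demethylase gene Kdm5b (r = 0.963), Dap (0.947), the matrix gene Matn2 (0.941), Slc18b1 (0.938) and the desmosomal gene Pkp1 (0.920). Kdm5b stood at 78.1 ± 5.76, 44.6 ± 4.54, 84.6 ± 5.70 and 69.3 ± 6.31 CPM in ID8 wild type, ID8 knockout, KPC wild type and KPC knockout (SD, n = 3, 3, 5 and 5). Among the members, r with Trp53bp1 was 0.46 for Dclre1c, 0.087 for Rif1 and for Paxip1, -0.32 for Mad2l2, -0.40 for Nudt16l1 and -0.49 for Rnf168. Shld1, Shld2 and Shld3 were below the level needed for the ranking.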

How the data were processed

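RNA of 16 samples labelled as tumours was sequenced. The authors deposited expected counts for each gene. The submitters' processing notes name HISAT, RSEM 1.2.8 and the build GRCm39 (mm39), and 7.92% to 8.96% of values per table were not whole. Genes missing from a table were taken as 0 and expected counts were rounded. Groups come from the labels.

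Tests used edgeR 4.0.16 (R 4.3.3, limma 3.58.1) with TMM factors, the filterByExpr filter and the robust quasi-likelihood test, with Benjamini-Hochberg adjustment over all tested genes at 0.05. Each line was fitted alone. The difference between lines and the wild-type comparison came from 1 fit of the 4 groups. Standard errors are approximate, the size of the log2 estimate over the root of its F value. Single genes were also tested by exact permutation of log2 CPM. The procedure was tested on simulated data.

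The members and gene lists were chosen with earlier results of these data known. Named were all members, the called list genes (at most 4 of smallest p per list and comparison) and the 5 genes of highest r with Trp53bp1. Some genes that this rule names are not reported here. Alternatives were other scalings, DESeq2 1.42.0, limma-voom, other filters, a joint fit, a replicate block and leaving out each library, and, added after seeing the data, leaving out libraries with Acta1 above 1000 CPM. Promoter windows leave out bases after the start. The floor was set at 3 counts, about 0.1521 CPM in the library of highest total before its TMM factor.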

Additional observations from a re-analysis of the deposited data

Results flagged for a closer look

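Dclre1c in wild-type KPC replicate 4 stood at 34.09 CPM, apart from the other 4 libraries of its group, which lay at 22.2 to 24.3 CPM. Its gap to the next library was 0.821 of the group's range, above the limit of 0.71 for 5 libraries. Among 20 combinations of a KPC group and a gene, chance marks about 1 in 20. Acta1 was at 1874 CPM in that library, and its part was not tested. Without the library the change of Dclre1c in KPC was 0.22 in place of 0.11 and did not pass. Its difference between the lines was then 0.59 in place of 0.47 and passed edgeR's test. Over all 24 alternatives that difference passed in 3, with adjusted p from 0.00964 to 0.243 (edgeR's test or the tool named for the alternative).

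The change of Trp53bp1 with the knockout differed between the lines by 0.7574 on the log2 scale (KPC minus ID8, adjusted p = 0.000525 by edgeR's quasi-likelihood test), with all knockout libraries below all wild-type libraries in each line. That of Rif1 differed by -0.6999 (adjusted p = 0.0117), with all 5 KPC knockout libraries below all KPC wild-type libraries and overlapping groups in ID8. That of Shld1 differed by -0.5759 (adjusted p = 0.0491), with all 3 ID8 knockout libraries above the ID8 wild-type libraries and overlapping groups in KPC.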

How the results depend on the processing

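In ID8 the 6 members called became 4 with library totals (3 higher and 1 lower), 2 with DESeq2 (Trp53bp1 and Shld1) and 1 in a joint fit of the 4 groups (Trp53bp1). With 1 library left out they became 2 to 5, with 2 without wild-type replicate 1 or knockout replicate 3 and 3 without knockout replicate 1. The number of all genes called in ID8 moved too. It was 6067 of 11933 in the main fit, 6542 with library totals and 5253 with DESeq2. The joint fit called 2681 of 14921 genes, and fits without 1 library called 5355 to 5786. In KPC the count of members stayed at 2 under all 19 alternatives, while that of all genes ran from 934 to 3524, beside 1953 in the main fit. The 3 members whose change differed between lines became 5 with library totals (Shld2 and Rnf168 added) and 5 with limma-voom (Shld2 and Dclre1c added), and 2 to 4 with 1 library left out. Of 14921 genes, 3259 were called in that comparison in the main fit, 3649 with library totals and 4972 with limma-voom. Fits without 1 library called 2294 to 3551 genes. Without the libraries of high Acta1 the count of members was 3, with Shld1 lost and Dclre1c added, and 3743 of 14669 genes were called. The log2 fold change of Trp53bp1 stayed between -1.36 and -1.25 in ID8 and between -0.64 and -0.51 in KPC.

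Equal replicate numbers did not pair the samples. Deviations of same-numbered libraries correlated at -0.0994, 0.206 and -0.0618 in ID8 and at -0.158, 0.564, 0.189, 0.344 and -0.517 in KPC, and not every library matched its own number best. With the replicate block, 4 members were called in ID8 (Nudt16l1 and Rnf168 not), 2 in KPC, and 2 between lines (Shld1 not). Of all genes, 5852 of 11933, 1665 of 14283 and 2755 of 14921 were called with that block. The changes of Trp53bp1 were then -1.325 and -0.5983.

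Estimates that changed sign were all of members that did not pass the test in that comparison. Rif1 between wild-type lines was 0.02102 with size factors, 0.09869 with library totals, 0.02104 with DESeq2, 0.02913 with limma-voom, 0.1361 without high Acta1 and up to 0.07576 with 1 library left out, from a lowest value of -0.0809. Between lines, Mad2l2 was -0.07132 and Shld3 -0.08452 with library totals. With 1 library left out the range was -0.005164 to 0.0966 for Mad2l2, -0.07777 to 0.177 for Shld3, -0.05334 to 0.1744 for Shld3 between wild-type lines, and -0.05636 to 0.01855 for Paxip1 in KPC. The causes were not tested. Counting error alone was 12.8% to 14.3% of the level for Shld3, whose libraries in wild-type KPC varied by 23.9%. Some ID8 groups varied less than counting error alone. Shld3 in ID8 knockout varied by 2.78% against 13.3%, and Nudt16l1 in ID8 wild type by 0.395% against 2.97%. Other ID8 groups varied more, such as Rif1 in wild type (11.6% against 3.29%). With 3 libraries per group, such a small SD is an uncertain measure of the spread between samples.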
